A study of Homo sapiens with 12 samples.

Results

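Integrins are the receptors by which epithelial cells hold and sense the extracellular matrix. Each receptor pairs an α subunit, which largely sets the ligand, with a β subunit, whose tail recruits talin, kindlin and the kinases of the focal adhesion. In carcinoma cells α2β1 binds collagen, α3β1 and α6β4 bind laminins, α5β1 binds fibronectin, and αv with β5 or β6 binds ligands that carry the RGD motif, such as vitronectin and latent TGF-β.

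The subunits typical of epithelial tumour cells were taken by symbol: ITGA2, ITGA3, ITGA4, ITGA5, ITGA6, ITGAV, ITGB1, ITGB4, ITGB5 and ITGB6. Of these 10 genes, 9 had a named feature, and together they held 11 of the 34487 features of the array table. ITGB4 had 3 features, named after different transcripts of the gene, and each other measured gene had 1. No feature was named for ITGA4, a subunit that pairs with β1 to bind VCAM1, and it was not analysed here.

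The RNA came from PANC-1, an established human pancreatic ductal carcinoma line. In the HPM group the cells shared a transwell with tumour-associated macrophages (TAMs) under hypoxia, and in the HPC group they were alone under hypoxia. In the NPM group they shared a transwell with TAMs under normoxia, and in the NPC group they were alone under normoxia. Each group had 3 arrays, the co-culture lasted 4 days, and the labels and methods read here do not state the oxygen tension. A transwell membrane separates the 2 cell types, and the study modelled TAMs with polarised THP-1 cells, a human monocytic leukaemia line. All groups share a single tumour line, so that the arrays of a group are repeats of the same cells and not of different tumours. The series' design text describes them as independent experiments, and p-values measure only the spread between such experiments.

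The values are log2 of the deposited intensities, given in the order of replicates 1, 2 and 3, and the arrays had closely matched distributions, with medians between 9.17 and 9.29. The 9 measured hypoxia genes of a check list differed by a median of 1.34 on the log2 scale between HPM and NPM cells. By limma's test 8 were called higher there, as 4.65% of all features were. Without the arrays numbered 3, 0 of the 9 passed (lowest adjusted p = 0.0739), as did 0 of all features. Between HPC and NPC cells the median was 1.05, and all 9 were higher at an unadjusted p under 0.05, which 17.8% of all features had in either direction. ANKRD37 of this list was called higher in HPM against HPC cells (1.23, adjusted p = 0.0362) and had -1.08 in NPM against NPC cells (adjusted p = 0.153). Its interaction was 2.32 (adjusted p = 0.0116). Without the arrays numbered 3 its adjusted p was 0.253 in HPM against HPC cells and 0.189 in the interaction. Of the 7 epithelial markers, the keratins KRT7, KRT8, KRT18 and KRT19 and CLDN4 stood above at least 75.3% of features on every array, while EPCAM stood above only 10% to 41.4% and CDH1, which encodes E-cadherin, above 14% to 50%. Their summed intensity was lower in co-culture without overlap, at 52591 to 57815 in HPM, 71296 to 77578 in HPC, 55678 to 60064 in NPM and 65512 to 76746 in NPC cells. Averaged over both oxygen levels, all 7 were below 0 and 1 was called lower, where 5.74% of all features were. It was KRT8 (-0.37, adjusted p = 0.0359, and 0.228 without the arrays numbered 3). The part of the lower epithelial marker signal in the co-culture results was not tested. In hypoxia averaged over both cultures 2 of the 7 were called higher, where 9.74% of all features were. They were CDH1 (1.17, adjusted p = 0.00247, and 0.0185 without the arrays numbered 3) and EPCAM (0.98, adjusted p = 0.00256, and 0.0366 without them). Both were also called higher in HPM against NPM cells (adjusted p = 0.0457 and 0.0299), but not without those arrays (0.08 and 0.137). Of 14 macrophage markers 11 were measured, none was at 0, and their median feature stood above only 9.85% to 21.7% of features. The macrophage markers' summed intensity was 6371 to 6570 in HPM, 4248 to 4490 in HPC, 5487 to 5935 in NPM and 5068 to 5504 in NPC cells, most of it from CD68. Averaged over both oxygen levels, CD68 was higher in co-culture (0.56, adjusted p = 0.00404) while LCP1 (-1.78, adjusted p = 0.000807) and LYZ (-0.90, adjusted p = 0.00501) were lower. Of all features 2.93% were called higher in this fit and 5.74% lower. Without the arrays numbered 3 the adjusted p was 0.0759, 0.0403 and 0.0794 for CD68, LCP1 and LYZ. LCP1 had -3.24 in NPM against NPC and -0.32 in HPM against HPC cells, with an interaction of 2.92 (adjusted p = 0.0146, and 0.271 without the arrays numbered 3). LYZ had -1.48 and -0.33 in the same 2 comparisons. Between HPC and NPC cells LCP1 was called lower as well (-2.08, adjusted p = 0.0337, and 0.183 without the arrays numbered 3). Both were dim, LCP1 above at most 22.6% and LYZ above at most 14.4% of features. The part of macrophage RNA in the results was not tested. The arrays numbered 3 stood apart from the others in several of the genes below, and the limma calls named are given with and without them. Without them 0 or 1 of all features passed in each pair comparison and in the interaction. A call lost there cannot tell their part from the loss of arrays.

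The promoter sequences are shown for the 2 subunits with the clearest differences, ITGA2 between oxygen levels and ITGA5 between cultures. They are the 250 bases before each gene's start in RefSeq, build GRCh38.p14, read 5′ to 3′ on the gene's strand, and capitals mark the core of a hypoxia response element. The core was searched as ACGTG or GCGTG on both strands. ITGA2 lies on the plus strand at chr5:52989102-52989351 and ITGA5 on the minus strand at chr12:54419267-54419516.
ITGA2 promoter: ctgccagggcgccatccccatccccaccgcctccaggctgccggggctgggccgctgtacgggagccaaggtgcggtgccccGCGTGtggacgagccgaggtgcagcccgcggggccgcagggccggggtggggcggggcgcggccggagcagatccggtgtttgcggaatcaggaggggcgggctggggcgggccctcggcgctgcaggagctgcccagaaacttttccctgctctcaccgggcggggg
ITGA5 promoter: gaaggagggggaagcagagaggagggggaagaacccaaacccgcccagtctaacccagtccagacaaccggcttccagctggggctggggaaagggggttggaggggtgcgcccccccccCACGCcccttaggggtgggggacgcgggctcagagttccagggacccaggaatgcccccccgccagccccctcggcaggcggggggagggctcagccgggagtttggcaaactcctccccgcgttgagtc
Each window held 1 such core, and 43.2% of 35116 promoters of this length held at least 1. Both windows are rich in G and C, with 76.4% in ITGA2 and 70% in ITGA5, against a median of 58% over all promoters. ITGA2 held 4 GC boxes, searched as GGGCGG on both strands, and ITGA5 held 1, where 42.6% of promoters held at least 1. Of the 9 measured genes 7 had an entry in the promoter table, 3 of them with a hypoxia core. The AP-1 site, TGAGTCA or its reverse complement, was in none of the 7 and in 4.2% of all promoters. These matches describe letters only.

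ITGA2 encodes the α2 subunit, which pairs only with β1 and binds fibrillar collagen. Its log2 intensities were 11.33, 11.41 and 11.20 in HPM, 11.79, 11.53 and 11.66 in HPC, 12.28, 12.42 and 12.52 in NPM and 11.93, 11.84 and 12.10 in NPC cells. The NPM arrays were the highest and the HPM arrays the lowest, and none of the 4 groups overlapped another. Hypoxia lowered it in co-cultured cells, where it averaged 11.31 ± 0.11 in HPM and 12.41 ± 0.12 in NPM cells (SD, n = 3 each). This was a log2 fold change of -1.10 (SE 0.15, limma adjusted p = 0.0126), and HPM cells held 0.468 of the NPM intensity. ITGA2 was the only 1 of the 11 integrin features to pass in this comparison, where 10.4% of all features passed, 5.79% in the lower direction. The call was lost without NPM replicate 2. It was also lost without the arrays numbered 3 (log2 fold change -0.98), where 0 of all features passed. Over 17 settings, which count the methods' t-test without adjustment, the adjusted p where given ranged from 0.000663 to 0.0904. In cells grown alone the difference was smaller, -0.30 between HPC and NPC (SE 0.16, adjusted p = 0.385).

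Co-culture went with opposite differences of ITGA2 at the 2 oxygen levels. It was 0.45 higher on the log2 scale in NPM than in NPC cells (SE 0.16, adjusted p = 0.283, unadjusted 0.0244). It was -0.35 in HPM against HPC cells (SE 0.14, adjusted p = 0.244, unadjusted 0.0496). Neither passed the adjusted test. Arrays of NPM above all of NPC, together with arrays of HPM below all of HPC, were seen in 0.861% of features. The interaction of co-culture and oxygen, which tests whether the 2 differences are equal, was -0.80 (SE 0.19, unadjusted p = 0.00176) and did not pass over all features (adjusted p = 0.122). It was the smallest p of the 11 integrin features, none of which passed by limma, where 0.452% of all features passed and 11.4% had an unadjusted p under 0.05. Its adjusted p ranged from 0.0426 to 0.441 over 20 settings. Averaged over both cultures, hypoxia lowered ITGA2 by a log2 fold change of -0.70 (SE 0.097, adjusted p = 0.000863). This held in all 19 settings run, with a highest adjusted p of 0.0267, and 11.6% of all features were called lower in the same fit.

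**Figure D1:**
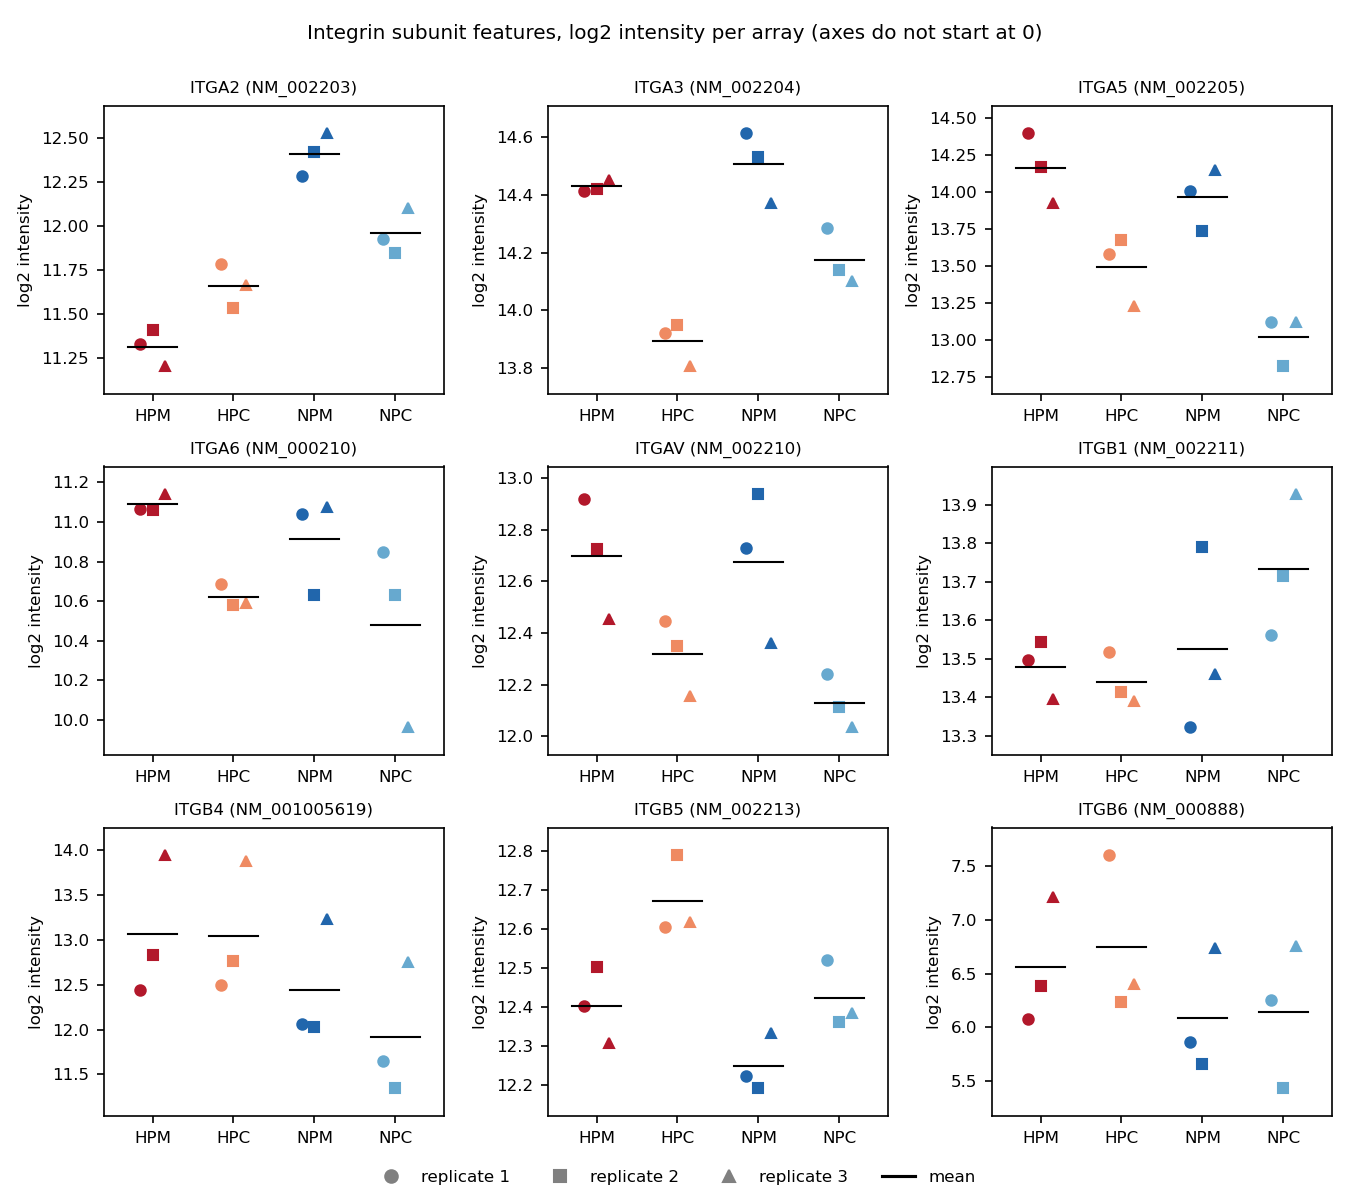
Log2 intensity of 9 integrin subunits on the 12 arrays, 1 panel per gene, for ITGB4 its brightest feature. Groups run HPM, HPC, NPM and NPC from left to right, marker shapes are replicate numbers, lines are group means, and each panel has its own axis. The ITGA2 groups are fully apart, ITGA3 and ITGA5 are higher in co-culture at both oxygen levels, and replicate 3 is the highest ITGB4 array in every group.

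ITGA5 encodes the α5 subunit of the main fibronectin receptor. Its log2 intensities were 14.40, 14.17 and 13.92 in HPM, 13.58, 13.67 and 13.23 in HPC, 14.01, 13.74 and 14.15 in NPM and 13.12, 12.82 and 13.13 in NPC cells. All co-cultured arrays lay above all arrays of cells grown alone, at either oxygen level. The log2 fold change was 0.94 in NPM against NPC cells (SE 0.18, adjusted p = 0.124) and 0.67 in HPM against HPC cells (SE 0.19, adjusted p = 0.129). These are 1.92-fold and 1.59-fold, and neither passed on 6 arrays. With same-numbered arrays as a replicate block in a fit over all 12 arrays, both passed, with adjusted p = 0.0226 for NPM against NPC and 0.0278 for HPM against HPC cells. Over all settings the adjusted p ranged from 0.0109 to 0.352 for NPM against NPC, and from 0.0278 to 0.28 for HPM against HPC cells. Under hypoxia alone the value was 0.47 in HPC against NPC cells (SE 0.19, adjusted p = 0.261), with no overlap of the groups, and 0.20 in HPM against NPM cells (adjusted p = 0.566), with overlap.

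ITGAV, the αv subunit of the RGD-binding receptors, had log2 intensities of 12.92, 12.73 and 12.45 in HPM, 12.45, 12.35 and 12.16 in HPC, 12.73, 12.94 and 12.36 in NPM and 12.24, 12.11 and 12.03 in NPC cells. The co-cultured arrays were above the others at both oxygen levels, narrowly in hypoxia. The log2 fold change was 0.55 in NPM against NPC cells (SE 0.19, adjusted p = 0.292) and 0.38 in HPM against HPC cells (SE 0.18, adjusted p = 0.284). It was 0.19 in HPC against NPC cells (adjusted p = 0.588) and 0.02 in HPM against NPM cells (adjusted p = 0.961), with overlap in both.

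ITGB5, the β5 subunit of a vitronectin receptor, had 12.40, 12.50 and 12.31 in HPM, 12.60, 12.79 and 12.62 in HPC, 12.22, 12.19 and 12.33 in NPM and 12.52, 12.36 and 12.39 in NPC cells. The co-cultured arrays were below the others at both oxygen levels, with log2 fold changes of -0.17 in NPM against NPC cells (adjusted p = 0.652) and -0.27 in HPM against HPC cells (adjusted p = 0.341). ITGB6, the β6 subunit of the receptor that activates latent TGF-β, was dim on every array, above only 1.39% to 23.1% of features. Its log2 values ran between 5.43 and 7.60 with overlap in every comparison, and no difference was detectable at this signal.

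ITGA3, the α3 subunit of a laminin receptor, had log2 intensities of 14.41, 14.42 and 14.45 in HPM, 13.92, 13.95 and 13.80 in HPC, 14.61, 14.53 and 14.37 in NPM and 14.29, 14.14 and 14.10 in NPC cells. Co-cultured arrays were higher without overlap at both oxygen levels. The log2 fold change was 0.54 in HPM against HPC cells (SE 0.13, adjusted p = 0.0912) and 0.33 in NPM against NPC cells (SE 0.15, adjusted p = 0.408). With the replicate block over 12 arrays the HPM against HPC difference passed (adjusted p = 0.0388), as it did in 7 of 18 settings, with a range of 0.013 to 0.327. The log2 fold change of ITGA3 was -0.28 in HPC against NPC cells (adjusted p = 0.372), without overlap, and -0.08 in HPM against NPM cells (adjusted p = 0.78).

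ITGA6, the α6 subunit that pairs with β1 or with β4, had log2 intensities of 11.07, 11.06 and 11.14 in HPM, 10.68, 10.58 and 10.59 in HPC, 11.04, 10.63 and 11.07 in NPM and 10.85, 10.63 and 9.96 in NPC cells. The HPM arrays were above the HPC arrays, by 0.47 (SE 0.13, adjusted p = 0.115), while NPM and NPC arrays overlapped, with a difference of 0.43 (SE 0.27, adjusted p = 0.546). The difference of HPC against NPC cells was 0.14 (adjusted p = 0.815), and -0.12 without NPC replicate 3, the lowest array.

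ITGB1, the common β1 partner of α2, α3, α5 and α6, had 13.50, 13.54 and 13.39 in HPM, 13.52, 13.41 and 13.39 in HPC, 13.32, 13.79 and 13.46 in NPM and 13.56, 13.71 and 13.93 in NPC cells. HPC arrays lay just below NPC arrays, with a difference of -0.29 on the log2 scale (adjusted p = 0.398), while arrays of the other pairs overlapped. Its 95% interval was -0.28 to 0.35 in HPM against HPC cells and -0.67 to 0.25 in NPM against NPC cells. Both intervals include 0 and allow a rise of up to their upper bounds.

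**Figure D2:**
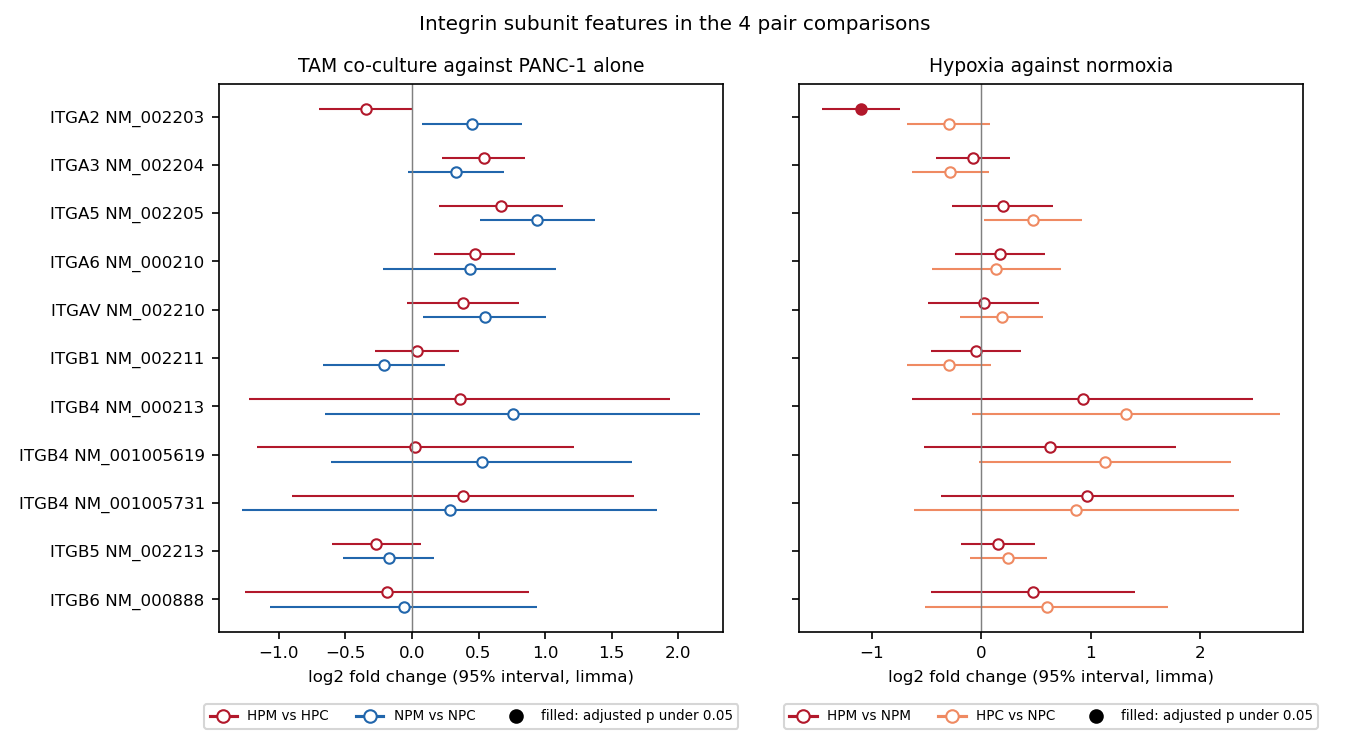
Log2 fold changes of the 11 integrin features with 95% intervals from limma, co-culture against cells alone on the left and hypoxia against normoxia on the right. Filled points passed at an adjusted p under 0.05. ITGA2 in HPM against NPM cells (-1.10) is the only filled point, and the ITGB4 intervals are the widest beside those of ITGB6.

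ITGB4 encodes the β4 subunit, which pairs with α6 and anchors the hemidesmosome to keratin filaments. Its feature NM_000213 had log2 intensities of 11.66, 12.06 and 13.86 in HPM, 11.55, 11.83 and 13.12 in HPC, 11.05, 11.23 and 12.52 in NPM and 10.54, 10.04 and 11.95 in NPC cells. NM_001005619 had 12.44, 12.82 and 13.94 in HPM, 12.49, 12.76 and 13.88 in HPC, 12.06, 12.03 and 13.23 in NPM and 11.65, 11.34 and 12.75 in NPC cells. NM_001005731 had 12.70, 12.81 and 14.12 in HPM, 12.20, 12.48 and 13.79 in HPC, 11.50, 11.94 and 13.27 in NPM and 11.54, 11.15 and 13.18 in NPC cells. Replicate 3 was the highest array of all 4 groups in all 3 features, which 5.29% of features share. The replicate number took 57.2%, 59.1% and 67.1% of the variance of the 3 features, against a median of 16.1% over all features and 0.495% in ITGA2. The labels do not say what the number marks, and its part in the level of ITGB4 was not tested.

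Within each replicate number, every ITGB4 feature was higher under hypoxia. The log2 differences of NM_001005619 were 0.38, 0.80 and 0.71 in HPM against NPM arrays and 0.84, 1.42 and 1.12 in HPC against NPC arrays of the same number. Averaged over both cultures, the hypoxia log2 fold changes of the features were 1.12, 0.88 and 0.92, with adjusted p = 0.129, 0.123 and 0.19 by limma. None of the 3 was called there. All 3 were called with the replicate number as a block, with adjusted p = 0.00106, 0.000848 and 0.00141, and without the arrays numbered 3, with adjusted p = 0.0156, 0.0182 and 0.0154. A block of the 3 numbers over 12 arrays called all 3 in HPC against NPC and in HPM against NPM cells too, although over all features the numbers were not taken to pair arrays across oxygen levels. Co-culture averaged over both oxygen levels gave 0.56, 0.27 and 0.33, with adjusted p = 0.538, 0.713 and 0.717. With the replicate block within each oxygen level, NM_000213 passed there (adjusted p = 0.0407) and the other 2 features did not.

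**Figure D3:**
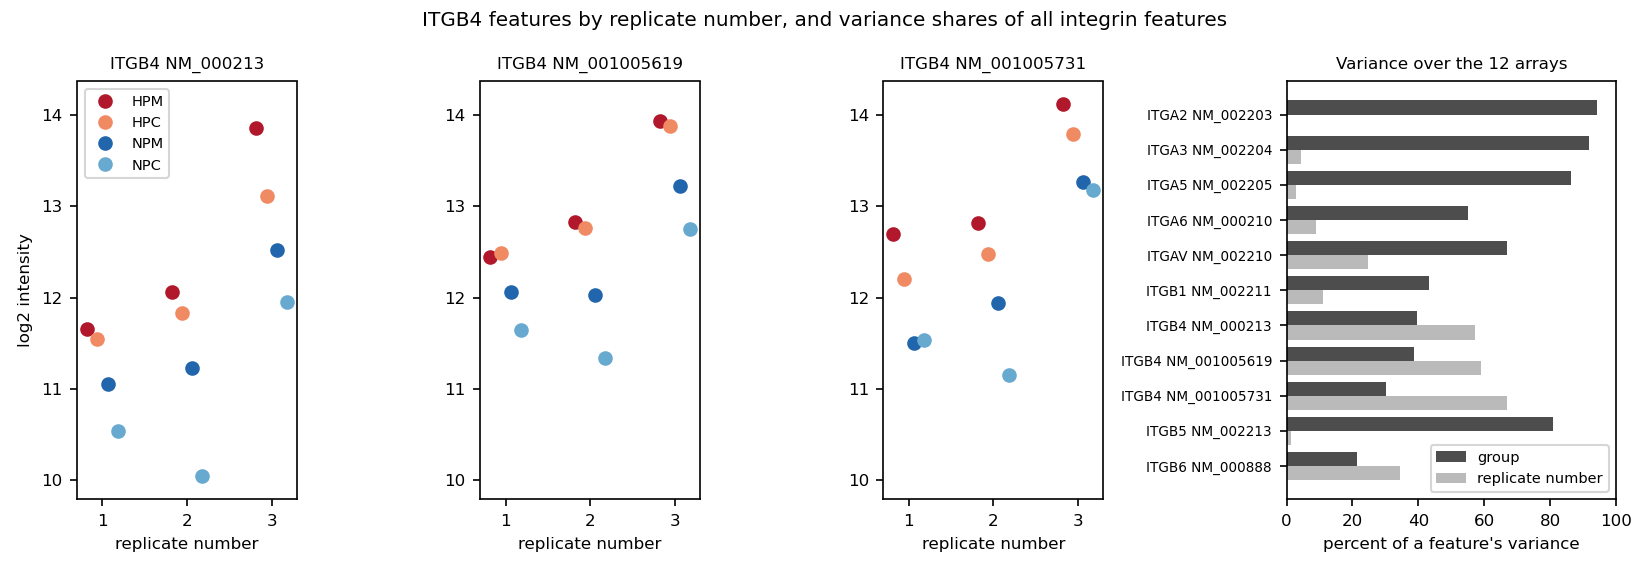
Log2 intensity of the 3 ITGB4 features by replicate number, with 1 point per group, and on the right the percent of the variance over 12 arrays that group and replicate number take in each of the 11 integrin features. Replicate 3 is on top in every ITGB4 panel, and the number takes 57.2% to 67.1% of the ITGB4 variance but 0.495% in ITGA2.

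Some other hemidesmosome genes showed the same pattern over arrays. Of the 7 listed partners of ITGA6 and ITGB4, replicate 3 was the highest array of all 4 groups in 4, as in 5.29% of all features. They were PLEC, COL17A1, LAMA3 and LAMB3, and in PLEC the smallest gap was 0.13. The pattern was not particular to this list. It was also found in 4 of 18 ligands, TNC, THBS1, LAMA5 and COL4A2, and in TNS4 and CA9. All these genes were chosen after their values were seen. LAMA3, the α3 chain of the laminin that hemidesmosomes bind, had 11.77, 11.02, 10.44 and 10.28 on replicate 3 of HPM, HPC, NPM and NPC cells, and between 6.28 and 8.38 on the other 8 arrays. LAMB3, its β3 chain, exceeded the next array by 2.21 to 2.57 in each group, and COL17A1, the hemidesmosomal collagen, by 2.10 to 3.96.

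In the count over comparisons, 0 of 11 integrin features passed by limma in NPM against NPC cells, where 0.0232% of all features did, 8 in number. At an unadjusted p under 0.05 there were 3, ITGA2, ITGA5 and ITGAV, where 13.7% of all features were. In HPM against HPC cells 0 of 11 passed, where 1.02% of all features did, and 4 had an unadjusted p under 0.05, ITGA2, ITGA3, ITGA5 and ITGA6, where 20.5% did. In HPC against NPC cells 0 of 11 passed, where 0.157% of all features did, and 1 had an unadjusted p under 0.05, ITGA5, where 17.8% did. The methods' t-test without adjustment called 4, 5 and 4 features in NPM against NPC, HPM against HPC and HPC against NPC cells, and after adjustment only ITGA3 in HPM against HPC cells. With the replicate block on 6 arrays, 1 feature of the whole table passed in NPM against NPC and 0 in HPM against HPC cells.

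Groups without overlap were found for 5 of 11 features in NPM against NPC cells, beside 21.4% of all features. They were ITGA2, ITGA3, ITGA5 and ITGAV higher, as 8.84% of all features were, and ITGB5 lower, as 12.6% were. In HPM against HPC cells there were 6, beside 27.7%, with ITGA3, ITGA5, ITGA6 and ITGAV higher (11.3% of all features) and ITGA2 and ITGB5 lower (16.4%). In HPC against NPC cells there were 5, beside 25.7%, with ITGA5 and ITGB5 higher (12.3% of all features) and ITGA2, ITGA3 and ITGB1 lower (13.5%). ITGA3, ITGA5 and ITGAV were higher without overlap in co-culture at both oxygen levels, as 2.51% of all features were. Only ITGA2 was apart in HPM against NPM cells, beside 34.5% of all features and 18.2% in the lower direction.

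An average over both oxygen levels, added after the data were seen, used all 12 arrays. Co-culture then raised 3 of the 9 genes, where 8.67% of all features passed and 2.93% in the higher direction. ITGA5 rose by a log2 fold change of 0.80 (SE 0.13, adjusted p = 0.00492), ITGA3 by 0.43 (SE 0.087, adjusted p = 0.0129) and ITGAV by 0.46 (SE 0.13, adjusted p = 0.0489). ITGA6 had 0.45 (adjusted p = 0.096) and ITGB5 -0.22 (adjusted p = 0.156). Without the arrays numbered 3 none of the 3 passed, with adjusted p = 0.0533 for ITGA5, 0.111 for ITGA3 and 0.0827 for ITGAV and log2 fold changes of 0.78, 0.42 and 0.54. ITGAV also lost its call without any 1 of 10 of the 12 arrays, up to an adjusted p of 0.103. Of the fits without 1 array, it kept the call only without HPM replicate 3 or NPM replicate 3. With the replicate block within each oxygen level all 3 passed, with adjusted p = 0.00642 for ITGA5, 0.0209 for ITGA3 and 0.0279 for ITGAV. The α subunits had a median of 0.45 and the β subunits, 1 feature per gene, -0.10, beside -0.01 over all features.

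The other genes of the pathway were read from lists of integrin partners, 1 feature per gene. Among 19 measured activators and adaptors, co-culture averaged over both oxygen levels raised 3 and lowered 0, where 2.93% of all features were called higher and 5.74% lower, and the median was 0.15. The 3 were ILK, the integrin-linked pseudokinase, LIMS1, which encodes PINCH1, and PARVB, which encodes β-parvin, and their products form a complex at the β tail. ILK rose by 0.45 (adjusted p = 0.0087), with 14.23, 14.20 and 14.09 in HPM, 13.77, 13.73 and 13.64 in HPC, 14.46, 14.48 and 14.61 in NPM and 14.05, 14.08 and 14.12 in NPC cells. LIMS1 rose by 0.44 (adjusted p = 0.0181) and PARVB by 0.59 (adjusted p = 0.00561). All 3 calls held without any 1 of the 12 arrays and were lost without the arrays numbered 3, with adjusted p = 0.0974 for ILK, 0.117 for LIMS1 and 0.0769 for PARVB. Co-cultured arrays of ILK were above those of cells alone at each oxygen level, without overlap.

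Hypoxia lowered TNS3, a tensin that links the β tail to actin, by -0.92 in HPM against NPM cells (adjusted p = 0.0165), the 1 activator of 19 called there, where 10.4% of all features were called and 5.79% lower. Without the arrays numbered 3 its log2 fold change was -0.96 (adjusted p = 0.0938), where 0 of all features passed. It was called in 3 of 6 fits without 1 array. In the average over both cultures 4 of 19 were lower, TNS3 with -0.60, ILK with -0.35, ACTN4 with -0.38 and VCL, which encodes vinculin, with -0.33, where 11.6% of all features were. Without the arrays numbered 3, TNS3 was still called (adjusted p = 0.0216), while ILK (0.133), ACTN4 (0.094) and VCL (0.274) were not. ILK was therefore higher in co-culture and lower in hypoxia.

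By limma 0 of 14 focal adhesion kinases and scaffolds were called for co-culture averaged over both oxygen levels, and 2 had an unadjusted p under 0.05, where 23.6% of all features did. Between HPM and NPM cells the adaptor CRK fell by 0.86 (adjusted p = 0.0217) and the kinase PAK1 rose by 0.89 (adjusted p = 0.0276). Of all features 5.79% were called lower there and 4.65% higher. CRK had 11.16, 11.32 and 11.17 in HPM and 12.18, 12.12 and 11.93 in NPM cells, and PAK1 had 11.27, 10.99 and 11.04 in HPM and 9.98, 10.34 and 10.31 in NPM cells. Without the arrays numbered 3 the log2 fold changes were -0.91 for CRK and 0.97 for PAK1. Both calls were lost there (adjusted p = 0.0982 and 0.115), where 0 of all features passed. Without 1 array CRK was called in 1 of 6 fits and PAK1 in 0. In the average over both cultures CRK and GIT1 were lower and PAK1 and SRC higher, where 11.6% of all features were called lower and 9.74% higher. Of these 4 only CRK was called without the arrays numbered 3 (adjusted p = 0.0354, and 0.057 for PAK1, 0.0853 for GIT1 and 0.0886 for SRC). In cells alone, HPC against NPC, CRK had -0.19 (adjusted p = 0.614) and PAK1 0.15 (adjusted p = 0.689).

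Among the hemidesmosome partners, hypoxia averaged over both cultures lowered DST, which encodes the plakin BPAG1, by -0.41 (adjusted p = 0.017, and 0.121 without the arrays numbered 3). DST was the 1 of 7 called there, where 11.6% of all features were called lower. Of 18 measured ligands, co-culture averaged over both oxygen levels raised 3, TGFB1 by 0.47 (adjusted p = 0.00915), COL4A1 by 0.60 (adjusted p = 0.0134) and VCAM1 by 1.48 (adjusted p = 0.0105), and lowered CCN1 by -0.44 (adjusted p = 0.0489), where 2.93% of all features were called higher and 5.74% lower. All 4 calls were lost without the arrays numbered 3, with adjusted p = 0.0873 for VCAM1 and 0.105 to 0.18 for the others. CCN1 had -0.79 in HPM against HPC cells (adjusted p = 0.0815) and -0.09 in NPM against NPC cells (adjusted p = 0.862). VCAM1, a ligand of α4, had 0.14 in HPM against HPC cells (adjusted p = 0.909) and was called in NPM against NPC cells (2.82, adjusted p = 0.0145), with an interaction of -2.68 (adjusted p = 0.0775). The NPM against NPC call was lost without any 1 of the 6 arrays, where 0 to 4 of all features passed. It was also lost without those numbered 3 (2.85, adjusted p = 0.197), where 1 of all features passed. These fits cannot tell the part of single arrays from the loss of arrays. VCAM1 fell by 2.18 in HPM against NPM cells (adjusted p = 0.00958). It was dim, above only 0.299% to 32.1% of features, with log2 values between 4.99 and 6.69 in HPM, HPC and NPC cells. The size of its differences is limited by this low signal. CCN2, a matricellular ligand, fell by 1.97 in HPM against NPM cells (adjusted p = 0.0172). Without the arrays numbered 3 these log2 fold changes were -2.02 for VCAM1 and -2.30 for CCN2. Neither HPM against NPM call held there (adjusted p = 0.0739 for VCAM1 and 0.0785 for CCN2), where 0 of all features passed. The values of CCN2 were 10.84, 9.95 and 10.71 in HPM and 12.63, 12.76 and 12.01 in NPM cells, with no overlap. Averaged over both cultures, hypoxia lowered CCN2 by -0.93 (adjusted p = 0.00939), the 1 ligand of 18 called, where 11.6% of all features were called lower. This call held without the arrays numbered 3 (-1.18, adjusted p = 0.0299). In cells alone CCN2 did not fall, with 0.11 in HPC against NPC cells (adjusted p = 0.853). Its interaction was -2.08 (adjusted p = 0.0665). FN1, which encodes the ligand of α5β1, was read by the feature NM_054034 and was chosen after its values were seen. This feature was dim on every array, with log2 values between 5.71 and 7.58. Which transcripts of FN1 it covers was not examined, so the level of the whole gene is not given by it.

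Of 7 measured tetraspanins and lateral partners, co-culture raised CD82, a tetraspanin that associates with integrins, by 0.95 (adjusted p = 0.00236), the 1 of 7 called, where 2.93% of all features were called higher. It was called without the arrays numbered 3 as well (adjusted p = 0.0359). Hypoxia averaged over both cultures raised CD82 by 0.48 (adjusted p = 0.0272, and 0.123 without the arrays numbered 3). It was the 1 of 7 called there, where 9.74% of all features were called higher. CD82 had 11.61, 11.83 and 11.63 in HPM, 10.96, 10.60 and 10.95 in HPC, 11.40, 11.62 and 10.92 in NPM and 10.17, 10.29 and 10.33 in NPC cells. Of 11 other integrin subunits, which mark mesenchymal, platelet or neural cells among others, 8 were measured. By limma 0 were called in any of the 7 comparisons, where 0.0232% to 21.4% of all features were. None had an unadjusted p under 0.05, which 23.6% of all features had in averaged co-culture. All but ITGA7, named after its values were seen, were dim, above at most 43.7% of features. The lack of calls at this signal does not show that these subunits were unchanged. Of 5 leukocyte integrin subunits 3 were measured, ITGB2, ITGAM and ITGAX, each above at most 32.8% of features. Their summed intensities were 336 to 632 in HPM, 369 to 499 in HPC, 289 to 343 in NPM and 323 to 410 in NPC cells. By limma 0 were called and at most 2 had an unadjusted p under 0.05 in any comparison, beside the same shares of all features. The summed ranges of co-cultured cells overlapped those of cells alone at both oxygen levels, but ITGB2, the common β subunit of this list, did not overlap in normoxia. It had 5.73, 6.72 and 6.74 in NPM and 7.61, 7.73 and 7.10 in NPC cells (-1.08, unadjusted p = 0.0144, adjusted p = 0.237), and was chosen after its values were seen.

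**Figure D4:**
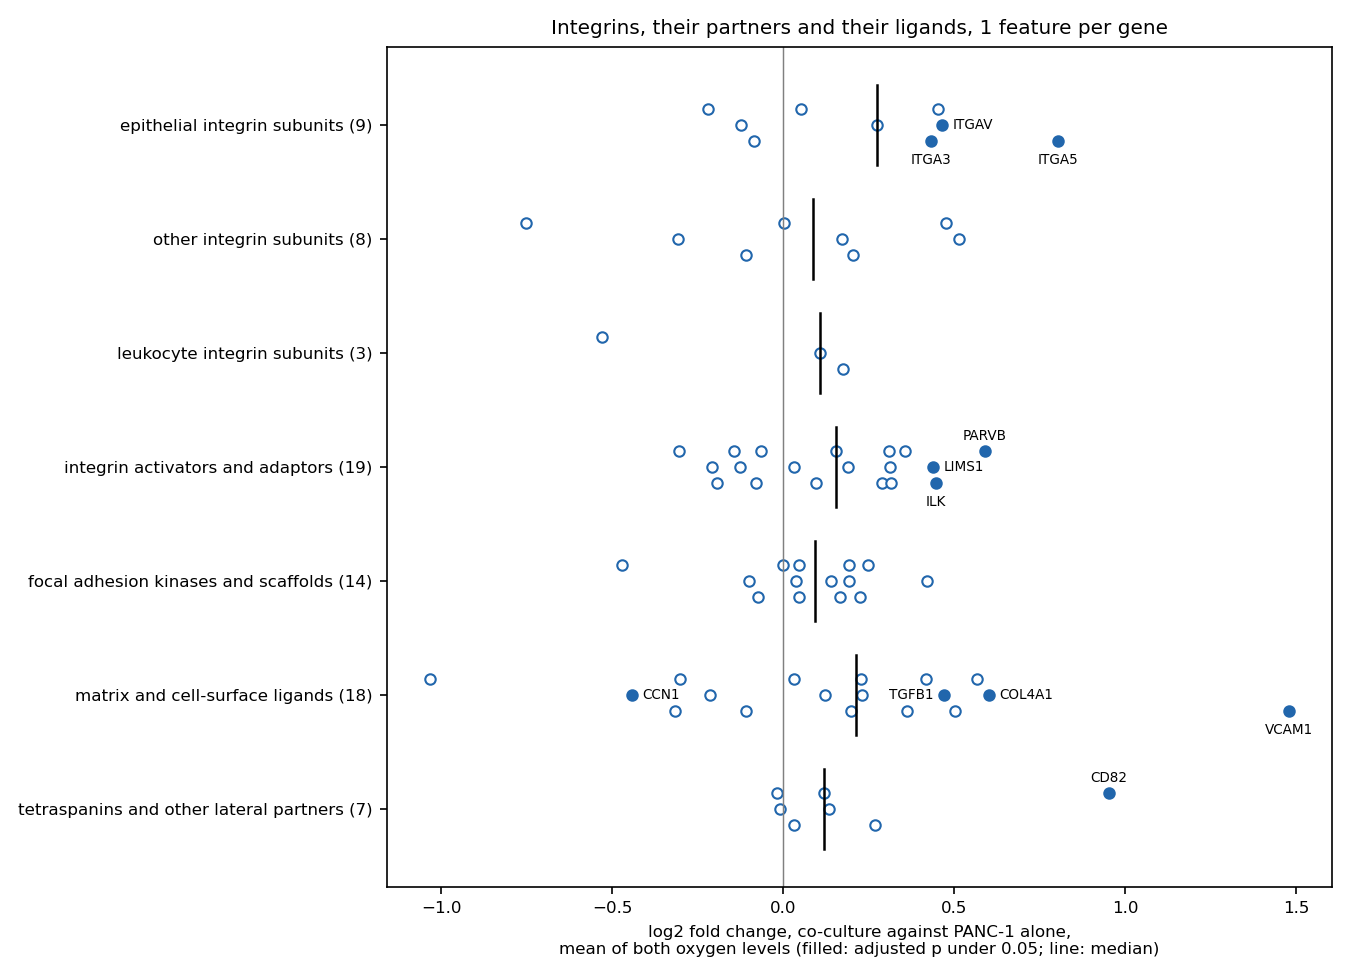
Log2 fold changes of co-culture against cells alone, averaged over both oxygen levels, for the integrin subunits and 6 lists of other subunits, partners and ligands, 1 point per gene at its brightest feature, with the number of genes in brackets. Filled points passed at an adjusted p under 0.05 and lines are list medians, among them 0.15 for the activators and 0.09 for the focal adhesion kinases.

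The 3 genes whose pattern over the 12 arrays was nearest to ITGA2 were CMTM3, TPM1 and POM121. Likeness was the root mean square difference of log2 values, each centred on its own mean, and they stood at 0.109, 0.135 and 0.14 among 14664 named features of other genes. CMTM3 averaged 9.49 in HPM, 10.01 in HPC, 10.50 in NPM and 10.14 in NPC cells, the same order of groups as ITGA2. TPM1, a tropomyosin of actin filaments, averaged 12.63 in HPM, 12.77 in HPC, 13.48 in NPM and 13.09 in NPC cells by its feature NM_001018006. Among the subunits themselves, ITGA3 and ITGAV were the closest pair of different genes (0.221), and ITGA2 was 0.393 from the nearest, ITGB1.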

How the data were processed

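The deposited series table holds linear intensities of 34487 features on 12 one-colour Cy3 arrays. Per the labels and the study's methods, the authors hybridised labelled cDNA to NimbleGen expression arrays, summarised probes with RMA in NimbleScan and quantile normalised. The series' own design text names another array maker, and how the features of the table were selected is not stated in the labels or methods. Log2 of these deposited intensities was taken here.

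Features were named through the platform probe table (14133) or by RefSeq accession (542), and 19812 stayed unnamed. Each pair of groups (3 arrays each) was tested over its 6 arrays, and the interaction and the 2 averages over 12, with limma 3.58.1 in R 4.3.3, Benjamini-Hochberg adjustment over all features and a call at an adjusted p under 0.05. With 3 against 3 arrays an exact permutation test cannot go below 0.1. The 10 members and all lists were chosen with earlier results of these data known. Every measured member was named. From the lists other than the hypoxia check, genes called in a comparison were named, and others are marked as chosen after their values were seen. The hypoxia check was given by counts, with ANKRD37 named for its co-culture call. The rule also allowed the 2 smallest p-values of a list with no call, which were not used. A result of the hemidesmosome list is not reported here. The 3 named genes nearest in pattern to a member called in a pair comparison were named. Lists used 1 feature per gene, the one with the highest mean.

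The same-number residuals of co-culture pairs correlated at 0.338, 0.281 and 0.52 in normoxia and at 0.502, 0.267 and 0.543 in hypoxia, all over 0.1, so the replicate numbers were taken to pair those arrays. The pairing rests on the data, since the labels number the replicates, described as independent experiments, without saying what a number shares. For hypoxia against normoxia the lowest were 0.025 without and 0.0103 with TAMs, and the numbers were not taken to pair. Alternatives were repeated quantile normalization, median centring, a filter on features under the 25th percentile, averaged features of a gene, eBayes with trend and robust, all 12 arrays in one fit, the methods' t-test, replicate blocks and arrays left out. The fits without the arrays numbered 3, the blocks over 12 arrays for pair comparisons and the 2 averages were added after the data were seen. The limma fit was tested on simulated data. The number of arrays limits the precision of every value.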

Additional observations from a re-analysis of the deposited data

Results flagged for a closer look

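The arrays of ITGA2 moved in opposite directions with TAM co-culture at the 2 oxygen levels. The interaction was -0.80 on the log2 scale (SE 0.19, unadjusted p = 0.00176 by limma), and every NPM array was above every NPC array while every HPM array was below every HPC array. Over all 34487 features it did not pass (adjusted p = 0.122). With a replicate block that pairs HPM with HPC and NPM with NPC arrays by number the adjusted p was also 0.122. Without the arrays numbered 3 it was 0.441, where 0 of all features passed. It passed only with eBayes trend and robust (adjusted p = 0.0426). Groups apart in opposite directions at the 2 oxygen levels were found in 1.48% of all features.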

How the results depend on the processing

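The direction and call of the integrin features held in 1314 of 1412 values computed under the alternatives, while 44 passed only under an alternative, 15 lost their call and 39 turned sign, none of those 39 called. The 44 include values that passed only at an unadjusted p under 0.05 by the methods' t-test. These were 4 in NPM against NPC, 5 in HPM against HPC and 4 in HPC against NPC cells. The cause of each change was not tested. Counts over all features moved most. In NPM against NPC cells (8 features) the count was 335 with dim features left out, 872 with all 12 arrays in one fit, 940 with trend and robust, 57 by the methods' t-test with and 4843 without adjustment, 1 without the arrays numbered 3, and 0 to 4 leaving out 1 array. In HPM against HPC cells (353) the same settings gave 1803, 1885, 2239, 231, 6815 and 0, and 0 leaving out any array. In HPC against NPC cells (54) they gave 826, 1452, 1639, 14, 5920 and 0, with 136 after repeated quantile normalization, 126 after median centring and 0 leaving out any array. In HPM against NPM cells (3602) they gave 5573 with all 12 arrays, 5561 with trend and robust, 2291 and 8912 by the t-test, 0 without the arrays numbered 3 and 191 to 1952 leaving out 1 array. The interaction (156) gave 311 with dim features left out, 363 with trend and robust, 0 without the arrays numbered 3 and 23 to 73 leaving out 1 array. Averaged co-culture (2990) gave 547 and averaged hypoxia (7374) 4846 without the arrays numbered 3, and averaged co-culture 1856 to 2865 leaving out 1 array.

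Integrin features called were 1 in NPM against NPC cells with all 12 arrays or with trend and robust (ITGA5), and 4 by the unadjusted t-test. In HPM against HPC cells they were 1 with dim features left out, with all 12 arrays or by the adjusted t-test (ITGA3), 3 with trend and robust and 5 by the unadjusted t-test, which called 4 in HPC against NPC cells. In HPM against NPM cells they were 0 without the arrays numbered 3 and 0 to 1 leaving out 1 array. Trend and robust gave 1 for the interaction (ITGA2) and 2 for averaged hypoxia. Without the arrays numbered 3 averaged co-culture had 0 and averaged hypoxia 4 (ITGA2 and the 3 ITGB4 features).

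With the replicate block on 6 arrays, features called were 1 in NPM against NPC, 0 in HPM against HPC, 0 in HPC against NPC and 1854 in HPM against NPM cells, where 2 integrin features passed, ITGA2 and ITGB4 NM_001005731 (adjusted p = 0.0473). The block gave 252 for the interaction, and 4 integrin features for averaged hypoxia, ITGA2 with the 3 of ITGB4 (adjusted p of those 0.00106, 0.000848 and 0.00141). The block within each oxygen level, over 12 arrays, gave 1147 features and 1 integrin feature in NPM against NPC, 2892 and 2 in HPM against HPC, 31 for the interaction and 4536 for averaged co-culture. A block of the 3 numbers over 12 arrays gave 1267 and 1, 2744 and 1, 2308 and 3, and 7024 and 4, in NPM against NPC, HPM against HPC, HPC against NPC and HPM against NPM cells. The block changed no other call of an integrin feature than these and that of ITGB4 NM_000213 for averaged co-culture. Same-numbered arrays of HPC and NPC or HPM and NPM correlated as low as 0.025 and 0.0103, and were not taken as pairs.

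Signs that turned were all of uncalled features. Leaving out 1 array, ITGB6 ran -0.42 to 0.25 in NPM against NPC, -0.51 to 0.24 in HPM against HPC, -0.45 to 0.30 in the interaction and -0.30 to 0.091 in averaged co-culture. ITGB4 NM_001005731 ran -0.23 to 0.89 in NPM against NPC, -0.069 to 0.87 in HPM against HPC and -0.51 to 0.62 in the interaction, ITGB4 NM_000213 -0.31 to 0.84 in HPM against HPC and -1.06 to 0.081 in the interaction, and ITGB4 NM_001005619 -0.41 to 0.44 in HPM against HPC cells. ITGA6 ran -0.12 to 0.32 in HPC against NPC and -0.15 to 0.30 in the interaction, ITGAV -0.13 to 0.15 and ITGB1 -0.15 to 0.086 in HPM against NPM cells. Without the arrays numbered 3 ITGA6 was -0.11 in HPC against NPC and ITGAV -0.011 in HPM against NPM cells. The interaction of ITGB6 was 0.010 after repeated quantile normalization, and that of the averaged ITGB4 features -0.26. ITGB6 was dropped by the filter on dim features, as were all 3 leukocyte subunits, and gave no value there.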
